A study of Homo sapiens with 9 samples.

Results

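ERRFI1 and 9 other feedback inhibitors and transcriptional readouts of EGFR-RAS-ERK signaling were followed in HCT116 cells, a human colorectal carcinoma line, with and without catalytically active HUWE1, a HECT-type ubiquitin ligase. The 10 genes, ERRFI1, DUSP4, DUSP5, DUSP6, SPRY2, SPRY4, SPRED1, ETV4, ETV5 and PHLDA1, were looked up by symbol in a table of counts for 11350 genes, and all 10 were present. ERRFI1 was selected on its low counts in HUWE1-CS cells, and the other 9 were named for their known place in the pathway when results from these counts had already been seen. The levels of ERRFI1 in HUWE1-CS cells are therefore a description without a test, and the tests of the other genes are no independent evidence for the choice of the list.

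RNA-seq libraries came from 3 lines, with 3 libraries each and no treatment. HUWE1-P cells are the unedited parental cells. In HUWE1-WT cells the codon of the catalytic cysteine of the endogenous gene was exchanged for a cysteine codon, and in HUWE1-CS cells for a serine codon. Both edited lines received the same kind of repair template, which carried a blasticidin resistance gene behind a P2A site, passed through puromycin and blasticidin selection and were grown from single cell clones, none of which applies to HUWE1-P cells. Whether the libraries of an edited line come from 1 clone or several is not given in the sources used here, so that p-values measure the spread between these libraries.

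Library totals lay between 1610984 and 2060349 counts, and 3 counts corresponded to 1.45 to 1.86 CPM (counts scaled to library size after TMM normalization). HUWE1 itself had 522 to 561 CPM in HUWE1-P, 453 to 498 CPM in HUWE1-WT and 323 to 345 CPM in HUWE1-CS libraries; counts per gene do not show which codon is present. Of 6 colon epithelial markers 5 were in the table (EPCAM, KRT8, KRT18, KRT19 and CDH1, but not VIL1), with a summed level of 4093 to 4511 CPM in the control lines and 3643 to 4015 CPM in HUWE1-CS cells. Against HUWE1-P cells, EPCAM (log2 fold change 0.28) and CDH1 (0.53) were called higher and KRT8 (-0.32) and KRT18 (-0.30) lower. Of 8 stromal and blood cell markers 3 were in the table (COL1A1, ACTA2 and CD68), with a summed level of 32.3 to 39.9 CPM in HUWE1-P, 34.8 to 44.2 CPM in HUWE1-WT and 22.6 to 32.6 CPM in HUWE1-CS cells. Of these, COL1A1 was called lower (11.4 CPM in HUWE1-CS against 22.2 CPM in HUWE1-P cells) and ACTA2 higher (1 to 6 counts in HUWE1-P and 13 to 15 counts in HUWE1-CS libraries). ACTA2 had 7 to 10 counts in HUWE1-WT libraries, and against that line it was not called (log2 fold change 0.80, adjusted p = 0.121, edgeR). The part of these markers in the results below was not tested. Short transcripts were on the whole higher and long ones lower in HUWE1-CS than in HUWE1-P cells: the median log2 fold change was 0.13 in the fifth of genes with the shortest transcripts and -0.12 in the fifth with the longest. For ERRFI1 and the genes listed with it, each comparison was also computed with that trend removed. Other named genes were checked in this way against HUWE1-P cells at most. Where a checked call of a gene named below changed, this is given. Calls of those other genes against HUWE1-WT cells and the ranking of genes by pattern were not checked for the trend.

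As background, ligand-bound EGFR activates RAS, and RAS activates the kinases RAF, MEK and ERK in turn. Active ERK raises transcription of its own inhibitors, which act at several levels of the cascade. ERRFI1, also called MIG6, binds the kinase domain of EGFR family receptors and blocks it. Dual-specificity phosphatases of the DUSP family remove phosphate from MAP kinases, and Sprouty and Spred proteins restrain the activation of RAS and RAF. ETV4 and ETV5 are ETS transcription factors whose genes ERK signaling induces, in part by relieving repression by CIC.

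The 250 bases before the transcription start of ERRFI1, DUSP6 and PHLDA1 are shown because ERRFI1 was lower and DUSP6 and PHLDA1 were higher in the same libraries. They are RefSeq sequences from a table on GRCh38.p14, and each had 1 exact match in GRCh37, the assembly used here for positions: chr1:8086370-8086619, chr12:89746279-89746528 and chr12:76425557-76425806, all on the minus strand. Capitals mark matches to any of the motifs searched.
ERRFI1: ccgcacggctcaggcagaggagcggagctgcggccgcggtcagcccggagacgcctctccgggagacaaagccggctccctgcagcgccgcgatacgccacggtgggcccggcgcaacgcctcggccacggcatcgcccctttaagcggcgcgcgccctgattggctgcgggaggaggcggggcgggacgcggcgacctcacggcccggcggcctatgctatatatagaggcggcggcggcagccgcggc
DUSP6: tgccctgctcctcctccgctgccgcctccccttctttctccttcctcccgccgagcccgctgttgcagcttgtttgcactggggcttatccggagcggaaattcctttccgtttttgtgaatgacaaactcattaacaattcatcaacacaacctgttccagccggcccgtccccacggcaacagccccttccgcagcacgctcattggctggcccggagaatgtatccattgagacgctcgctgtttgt
PHLDA1: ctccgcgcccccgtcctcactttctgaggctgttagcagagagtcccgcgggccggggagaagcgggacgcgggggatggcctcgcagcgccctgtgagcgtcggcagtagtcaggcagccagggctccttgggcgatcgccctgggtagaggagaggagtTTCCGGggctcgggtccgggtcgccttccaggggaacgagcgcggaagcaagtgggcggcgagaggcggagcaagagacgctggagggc

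Both strands of these windows were searched for an ETS motif (CCGGAA), AP-1 (TGANTCA), CRE (TGACGTCA), CIC (TGAATGAA or TGAATGGA) and CArG motifs, and no match overlapped another. Such matches were in 14.5%, 6.57%, 1.65%, 2.19% and 1.16%, respectively, of 35116 windows of the same length in the table. The PHLDA1 window held 1 CCGGAA match, read on the opposite strand 84 to 89 bases before the start. The ERRFI1 and DUSP6 windows held none of the motifs searched, nor did those of SPRY4 and SPRED1. The shorter ETS core GGAA was not searched for. The printed DUSP6 window does hold it, as does the PHLDA1 window outside the marked match, and the ERRFI1 window holds it on neither strand. SPRY2 had 3 windows in the table, and the one farthest upstream held 1 CCGGAA match. DUSP4, DUSP5, ETV4 and ETV5 had no entry in the table. A match of letters in a window does not show that a factor binds there.

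The list split in HUWE1-CS cells: ERRFI1 and DUSP5 were lower, and DUSP4, DUSP6, SPRY4, ETV4 and PHLDA1 were higher. Genes were called at an FDR of at most 0.01 in edgeR's quasi-likelihood test over all 11350 genes. Compared with the parental line, 5 of these 10 were called higher, where 8.46% of all genes were, and 2 lower, where 8.58% were. Together these are 7 of 10, beside 17.0% of all genes, and since ERRFI1 was chosen for this contrast nothing is read from that count. Without ERRFI1, 6 of 9 genes were called. The same 7 genes were past the threshold against HUWE1-WT cells, which share the HUWE1-CS libraries: 5 higher, where 7.42% of all genes were, and 2 lower, where 8.08% were, or 15.5% of all genes in either direction. ERRFI1 is among the lower ones here too, so nothing is read from this count. Without ERRFI1, 6 of 9 genes were called against HUWE1-WT cells. The median log2 fold change of the 10 genes was 0.36 against HUWE1-P and 0.33 against HUWE1-WT cells, beside -0.0072 and -0.00059 over all genes. Without ERRFI1 the medians were 0.39 and 0.41. The 3 HUWE1-CS libraries lay above all 6 others for 6 of the 10 genes and below them for 2, and over all genes this was so for 12.9% and 13.4%. ERRFI1, chosen for its low counts there, is among those below, so nothing is read from that number. Libraries were made from whole cultures, in which fewer cells expressing a gene and less RNA per cell cannot be told apart.

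**Figure D1:**
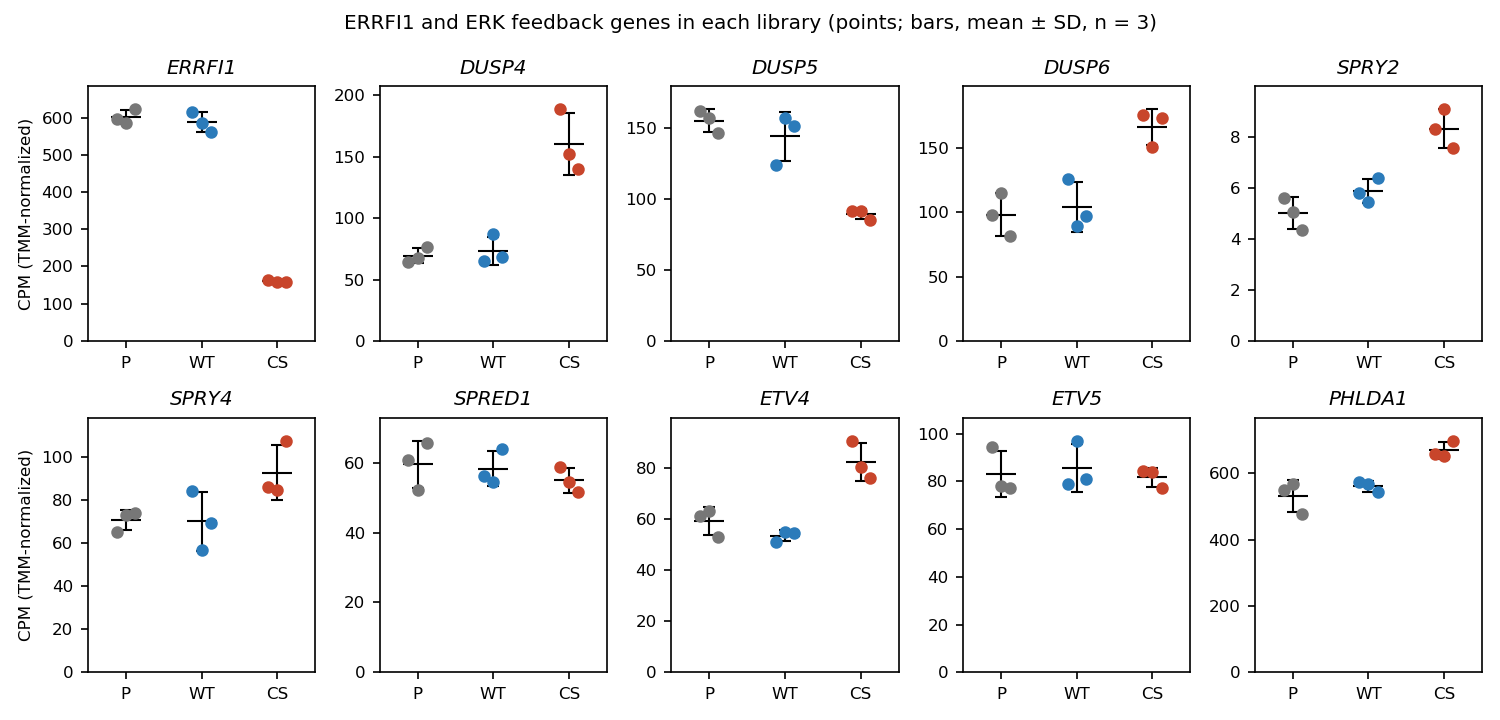
TMM-normalized CPM of the 10 genes (vertical axis, from 0) in the HUWE1-P, HUWE1-WT and HUWE1-CS libraries; points are libraries and bars are mean ± SD of 3. ERRFI1 and DUSP5 sit below both control lines in HUWE1-CS cells, DUSP4, DUSP6, SPRY2, SPRY4, ETV4 and PHLDA1 above them, and SPRED1 and ETV5 overlap.

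ERRFI1 (Entrez 54206; chromosome 1, 8064464 to 8086369, minus strand, GRCh37) had 595, 586 and 623 CPM in HUWE1-P and 614, 586 and 561 CPM in HUWE1-WT libraries. Its level in HUWE1-CS libraries was 164, 158 and 159 CPM. The control libraries were all above 560 CPM and the HUWE1-CS libraries close to each other far below, a mean of 160 ± 3.66 CPM (SD, n = 3) against 601 ± 19.0 CPM (SD, n = 3) in HUWE1-P and 587 ± 26.8 CPM (SD, n = 3) in HUWE1-WT cells. This is 3.76-fold lower than in HUWE1-P cells (log2 fold change -1.91, standard error 0.0707) and 3.66-fold lower than in HUWE1-WT cells (-1.87, standard error 0.0709). The number of reads behind these values was 959 to 1292 in the control libraries and 273 to 278 in the HUWE1-CS libraries. Over the other settings of the fit the log2 fold change against HUWE1-P cells lay between -1.93 and -1.88, with the length trend removed among them.

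The 3 phosphatases did not move together. DUSP4, a phosphatase found in the nucleus that acts on ERK, p38 and JNK, had 64.6, 67.9 and 76.1 CPM in HUWE1-P, 65.5, 86.7 and 68.0 CPM in HUWE1-WT and 189, 153 and 140 CPM in HUWE1-CS libraries. Its lowest HUWE1-CS library was well above the highest control library. It rose 2.29-fold against HUWE1-P cells (1.20 on the log2 scale with a standard error of 0.105, adjusted p = 3.18e-17, edgeR) and 2.17-fold against HUWE1-WT cells (1.12, adjusted p = 7.69e-16, edgeR), the largest rise among the 10 genes in both comparisons. DUSP6, the cytoplasmic phosphatase selective for ERK, had 98.1, 115 and 81.9 CPM in HUWE1-P, 126, 89.4 and 97.1 CPM in HUWE1-WT and 176, 151 and 174 CPM in HUWE1-CS libraries. Here too the groups did not overlap, although the control libraries were spread more widely. DUSP6 rose by 0.77 on the log2 scale against HUWE1-P cells (standard error 0.0989, adjusted p = 5.38e-10, edgeR) and by 0.68 against HUWE1-WT cells (adjusted p = 2.65e-08, edgeR).

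DUSP5, a nuclear phosphatase selective for ERK, went the other way. It had 162, 157 and 146 CPM in HUWE1-P, 124, 157 and 151 CPM in HUWE1-WT and 91.4, 91.3 and 85.4 CPM in HUWE1-CS libraries. The HUWE1-CS libraries were all lower than the lowest control library, HUWE1-WT replicate 1. The log2 fold change was -0.79 against HUWE1-P cells (standard error 0.0953, adjusted p = 5.68e-11, edgeR) and -0.69 against HUWE1-WT cells (adjusted p = 1.03e-08, edgeR). The calls of DUSP4, DUSP5 and DUSP6 held in both comparisons under each of the other settings of the fit. Against HUWE1-P cells, DUSP5 lay between -0.83 and -0.75 and DUSP6 between 0.64 and 0.90.

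Of the Sprouty and Spred genes, SPRY4 was called and SPRY2 and SPRED1 were not. SPRY4 had 65.2, 73.0 and 73.7 CPM in HUWE1-P, 84.0, 56.7 and 69.2 CPM in HUWE1-WT and 86.1, 84.5 and 107 CPM in HUWE1-CS libraries. The lowest HUWE1-CS library was just above HUWE1-WT replicate 1, and HUWE1-CS replicate 3 stood above the rest. The log2 fold change was 0.39 against HUWE1-P cells (standard error 0.115, adjusted p = 0.00720, edgeR) and 0.41 against HUWE1-WT cells (adjusted p = 0.00500, edgeR). This call was the least stable of the list. Against HUWE1-P cells it was lost with DESeq2 (adjusted p = 0.0594), limma-voom (0.0109) and total counts in edgeR (0.0137), and in edgeR without HUWE1-CS replicate 3 (log2 fold change 0.27, adjusted p = 0.110) or without HUWE1-P replicate 1 (0.34, 0.0514), 2 (0.41, 0.0136) or 3 (0.42, 0.0145). Against HUWE1-WT cells it was lost with DESeq2 (adjusted p = 0.0514) and total counts in edgeR (0.0104), and in edgeR without HUWE1-CS replicate 3 (0.30, adjusted p = 0.0886) or without HUWE1-WT replicate 2 (0.28) or 3 (0.40, adjusted p = 0.0198).

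SPRY2 was near the limit of this depth, with 9 counts in each HUWE1-P library, 10, 10 and 11 counts for HUWE1-WT and 14, 16 and 13 counts for HUWE1-CS cells. The HUWE1-CS libraries were the highest of the 9, at 7.55 to 9.07 CPM against 4.34 to 6.40 CPM. With so few reads the log2 fold change of 0.74 against HUWE1-P cells had a 95% interval of 0.01 to 1.47 (adjusted p = 0.130, edgeR), and that of 0.50 against HUWE1-WT cells one of -0.21 to 1.20 (adjusted p = 0.334, edgeR). SPRED1, which brings the RAS inactivator neurofibromin to the membrane, had 60.8, 52.2 and 65.5 CPM in HUWE1-P, 56.2, 54.5 and 64.0 CPM in HUWE1-WT and 58.8, 54.4 and 51.7 CPM in HUWE1-CS libraries. The lines overlapped, and the interval of the log2 fold change relative to HUWE1-P cells was -0.37 to 0.13 (adjusted p = 0.536, edgeR), which leaves out a rise of the size found for ETV4 or DUSP6.

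The PEA3-type ETS factors differed from each other. ETV4 had 61.5, 63.4 and 53.0 CPM in HUWE1-P, 51.0, 55.1 and 54.7 CPM in HUWE1-WT and 90.8, 80.5 and 76.1 CPM in HUWE1-CS libraries. All HUWE1-CS libraries were above all others, with a log2 fold change of 0.48 against HUWE1-P cells (standard error 0.118, adjusted p = 8.44e-04, edgeR) and 0.62 against HUWE1-WT cells (adjusted p = 2.85e-05, edgeR). The call against HUWE1-P cells was lost with DESeq2 (adjusted p = 0.0132), and in edgeR without HUWE1-CS replicate 1 (log2 fold change 0.41, adjusted p = 0.0161) or HUWE1-P replicate 3 (0.40, 0.0214), while that against HUWE1-WT cells held in each setting. ETV5 had 94.4, 78.0 and 77.1 CPM in HUWE1-P, 78.8, 97.1 and 80.8 CPM in HUWE1-WT and 84.3, 83.9 and 77.2 CPM in HUWE1-CS libraries. The 3 lines overlapped fully, and the 95% interval of the log2 fold change relative to HUWE1-P cells was -0.23 to 0.20, so that a change of the size of that in ETV4 lay outside it (adjusted p = 0.944, edgeR). ETV1, the remaining gene of this family and not one of the 10, had 35.4, 32.0 and 32.3 CPM in HUWE1-P and 21.4, 18.7 and 16.3 CPM in HUWE1-CS libraries, and fell by 0.82 on the log2 scale (standard error 0.187, adjusted p = 3.54e-04, edgeR).

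PHLDA1, a pleckstrin homology-like protein whose gene is part of published ERK activity signatures, had 550, 567 and 476 CPM in HUWE1-P, 573, 568 and 542 CPM in HUWE1-WT and 658, 651 and 698 CPM in HUWE1-CS libraries. The change was small but larger than the spread between libraries, 0.33 on the log2 scale against HUWE1-P cells (standard error 0.0624, adjusted p = 1.05e-05, edgeR) and 0.25 against HUWE1-WT cells (adjusted p = 0.00101, edgeR). Without HUWE1-CS replicate 3 (0.23, adjusted p = 0.0106, edgeR) or HUWE1-WT replicate 3 (0.23, adjusted p = 0.0146, edgeR) the call against HUWE1-WT cells was lost.

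Between the control lines none of the 10 genes was called, beside 0.0617% of all genes (7 of 11350 in edgeR). None had an unadjusted p under 0.05 in edgeR, beside 629 of 11350 genes. DESeq2 called 0 of all genes here, so that its 0 of the 10 says nothing about them. The log2 fold changes of HUWE1-WT against HUWE1-P cells ran from -0.14 (ETV4) to 0.25 (SPRY2), with a median of 0.02. The libraries of the control lines overlapped for each of the 10 genes. The share over all genes was not computed, so nothing is read from that overlap. For ERRFI1, for which this contrast did not enter the choice, the log2 fold change was -0.04 with a 95% interval of -0.16 to 0.08 (adjusted p = 0.983, edgeR). For DUSP4 the interval was -0.16 to 0.31, for DUSP5 -0.27 to 0.07 and for DUSP6 -0.12 to 0.30, each well short of the change seen in HUWE1-CS cells. This did not hold for all of the list. For PHLDA1 the interval was -0.04 to 0.21, closer to its change of 0.25 against HUWE1-WT cells. For SPRY2 it was -0.54 to 1.03, which includes its log2 fold changes in both HUWE1-CS comparisons, as was so for SPRED1 and ETV5. Those intervals do not show that the control lines are alike.

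**Figure D2:**
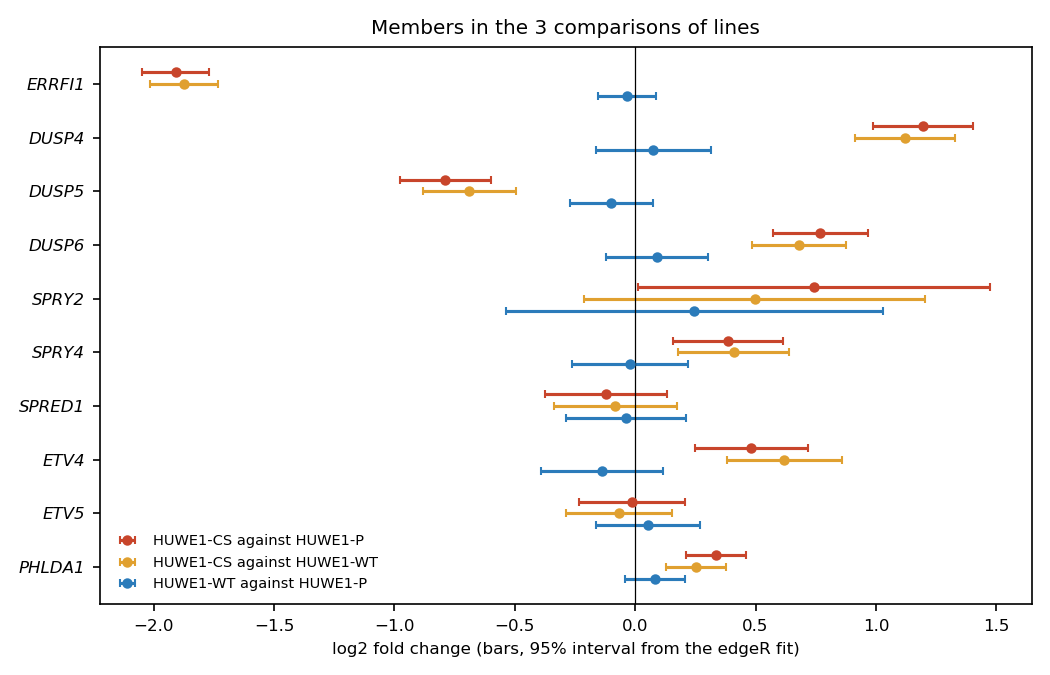
Log2 fold changes of the 10 genes (horizontal axis) in the 3 comparisons of lines, with 95% intervals from the edgeR fit as bars. The HUWE1-CS comparisons, which share the HUWE1-CS libraries, run from -1.91 for ERRFI1 to 1.20 for DUSP4, and each interval of HUWE1-WT against HUWE1-P cells includes 0.

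Per kilobase of transcript, ERRFI1 was the most abundant of the 10 mRNAs in the control lines and PHLDA1 in HUWE1-CS cells. ERRFI1 had 194 ± 6.13 CPM per kb (SD, n = 3) in HUWE1-P cells, followed by PHLDA1 with 89.9 ± 8.16 and DUSP5 with 62.5 ± 3.29 CPM per kb. Lower down came DUSP6 (27.1), ETV4 (25.4), ETV5 (20.4), SPRY4 (14.4), DUSP4 (12.5), SPRED1 (8.19) and SPRY2 (2.18 CPM per kb), where the libraries of DUSP6 and ETV4, of ETV4 and ETV5, and of SPRY4 and DUSP4 overlapped. In HUWE1-WT cells the order was the same. In HUWE1-CS cells PHLDA1 (113 ± 4.29 CPM per kb) came before ERRFI1 (51.7 ± 1.18), DUSP6 (46.0 ± 3.80), DUSP5 (36.1 ± 1.40), ETV4 (35.3 ± 3.24) and DUSP4 (28.9 ± 4.56; SD, n = 3 each). DUSP6 thus stood above DUSP5 in the mutant line and below it in both control lines, with no overlap of the libraries in any of them. These levels use the length of 1 reference transcript per gene, from 2286 bases for SPRY2 to 7270 for SPRED1, and would shift if the cells use another.

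The rest of the pathway was read from 4 further lists, drawn up from general knowledge with earlier results known, and shown in the plot of pathway genes by list. Of 20 other ERK-responsive genes 17 were in the table (not EPHA4, EGR3 or FOS); 3 were called higher and 5 lower than in the parental line, beside 8.46% and 8.58% of all genes, with a median log2 fold change of -0.10. The lower ones were CCND1, which encodes cyclin D1 (856 ± 31.7 to 633 ± 14.2 CPM; log2 fold change -0.43, adjusted p = 2.70e-09, edgeR), the receptor kinase EPHA2 (215 ± 8.73 to 152 ± 1.32 CPM; -0.50, adjusted p = 2.23e-07, edgeR), the chromatin protein HMGA2 (-0.56, adjusted p = 4.44e-08, edgeR), ETV1, and EREG, a ligand of EGFR (-0.30, adjusted p = 1.34e-04, edgeR). The higher ones were TGFA (0.56, adjusted p = 3.32e-05, edgeR) and AREG (0.40, adjusted p = 3.33e-04, edgeR), ligands of the same receptor, and IER3, an early response gene (0.27, adjusted p = 0.00172, edgeR). With HUWE1-WT cells as the control, these genes were called again except IER3 (0.16, adjusted p = 0.0806, edgeR). That made 2 higher and 5 lower, beside 7.42% and 8.08% of all genes. The called genes of this list were checked with the length trend removed only against HUWE1-P cells. There the call of IER3 was lost (0.14, adjusted p = 0.0887, edgeR), as was that of AREG (0.28, adjusted p = 0.0110, edgeR). Without HUWE1-CS replicate 1 (IER3, log2 fold change 0.24), HUWE1-CS replicate 2 (EREG, -0.20), HUWE1-P replicate 1 (IER3, 0.23) or HUWE1-P replicate 3 (IER3, 0.23; AREG, 0.32), the genes named in parentheses were no longer called.

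Of 11 other MAP kinase phosphatase, Sprouty and Spred genes, 7 were in the table (DUSP1, DUSP2, DUSP7, DUSP8, DUSP9, DUSP16 and SPRED2). Of these 7, edgeR called 0, beside 17.0% of all genes, and DESeq2 called 0, beside 1088 of all 11350 genes. An unadjusted p under 0.05 in edgeR was reached by 1 of the 7, beside 4100 of all 11350 genes. That gene, DUSP7, named here after its value was seen, had a log2 fold change of -0.43 (adjusted p = 0.0254, edgeR) and passed the FDR of 0.01 without HUWE1-P replicate 2 (-0.59, adjusted p = 0.00283, edgeR). The median of the list was -0.12. Group means of these genes in HUWE1-P and HUWE1-CS cells ranged from 9.28 CPM (DUSP8) to 68.0 CPM (SPRED2).

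Of 25 genes of the cascade from EGFR to ERK, 24 were in the table (not GAB1), 2 were called higher and 2 lower, beside 8.46% and 8.58% of all genes, and the median log2 fold change was 0.05. NRAS fell from 153 ± 11.1 to 107 ± 7.67 CPM (-0.52, adjusted p = 4.21e-06, edgeR). The receptor ERBB3 (0.50, adjusted p = 0.00590, edgeR) and RASA1, which inactivates RAS (0.45, adjusted p = 0.00898, edgeR), were higher. Only the call of NRAS held in each of the other settings. Against HUWE1-WT cells NRAS was the only gene of the list called (-0.49, adjusted p = 1.38e-05, edgeR), beside 15.5% of all genes. RASA1 had a log2 fold change of 0.37 there (adjusted p = 0.0339, edgeR) and ERBB3 one of 0.12 (adjusted p = 0.582, edgeR). For ERBB3, HUWE1-WT against HUWE1-P cells gave 0.38 (adjusted p = 0.74, edgeR), with all HUWE1-WT libraries above the HUWE1-P ones. With HUWE1-CS replicate 1, 2 or 3 or HUWE1-P replicate 1 left out, 2 of the 24 were called against HUWE1-P cells. EGFR, the receptor that ERRFI1 binds and named here for that reason, had 44.1, 46.0 and 45.8 CPM in HUWE1-P, 48.1, 45.8 and 47.1 CPM in HUWE1-WT and 42.1, 30.6 and 41.8 CPM in HUWE1-CS libraries. The HUWE1-CS libraries were the lowest, but the log2 fold change of -0.25 was not called (95% interval -0.54 to 0.04, adjusted p = 0.216, edgeR).

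Of 10 ETS repressors and ternary complex factors, all in the table, CIC was the only one called against HUWE1-P cells and ELK3 the only one against HUWE1-WT cells, or 1 of 10 in each comparison beside 17.0% and 15.5% of all genes. CIC, a repressor of ETV4, ETV5, DUSP6 and Sprouty genes that ERK inactivates, had 84.4, 75.8 and 77.6 CPM in HUWE1-P, 69.0, 62.7 and 65.1 CPM in HUWE1-WT and 51.6, 47.6 and 65.6 CPM in HUWE1-CS libraries. HUWE1-WT libraries lay between the others, with HUWE1-CS replicate 3 among them. The log2 fold change relative to HUWE1-P cells was -0.52 (standard error 0.122, adjusted p = 4.20e-04, edgeR), and -0.42 without HUWE1-CS replicate 2, where the call was lost (adjusted p = 0.0136, edgeR). Against HUWE1-WT cells it was -0.25 (adjusted p = 0.138, edgeR), and HUWE1-WT against HUWE1-P cells gave -0.27 (adjusted p = 0.823, edgeR). ELK3, a ternary complex factor that the naming rule did not cover and that is given after its values were seen, had 39.1, 33.1 and 33.7 CPM in HUWE1-P, 38.8, 43.6 and 55.2 CPM in HUWE1-WT and 26.7, 25.5 and 27.9 CPM in HUWE1-CS libraries. All HUWE1-CS libraries were below the others, with a log2 fold change of -0.78 against HUWE1-WT (adjusted p = 9.15e-05, edgeR) and -0.40 against HUWE1-P cells (adjusted p = 0.0748, edgeR).

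**Figure D3:**
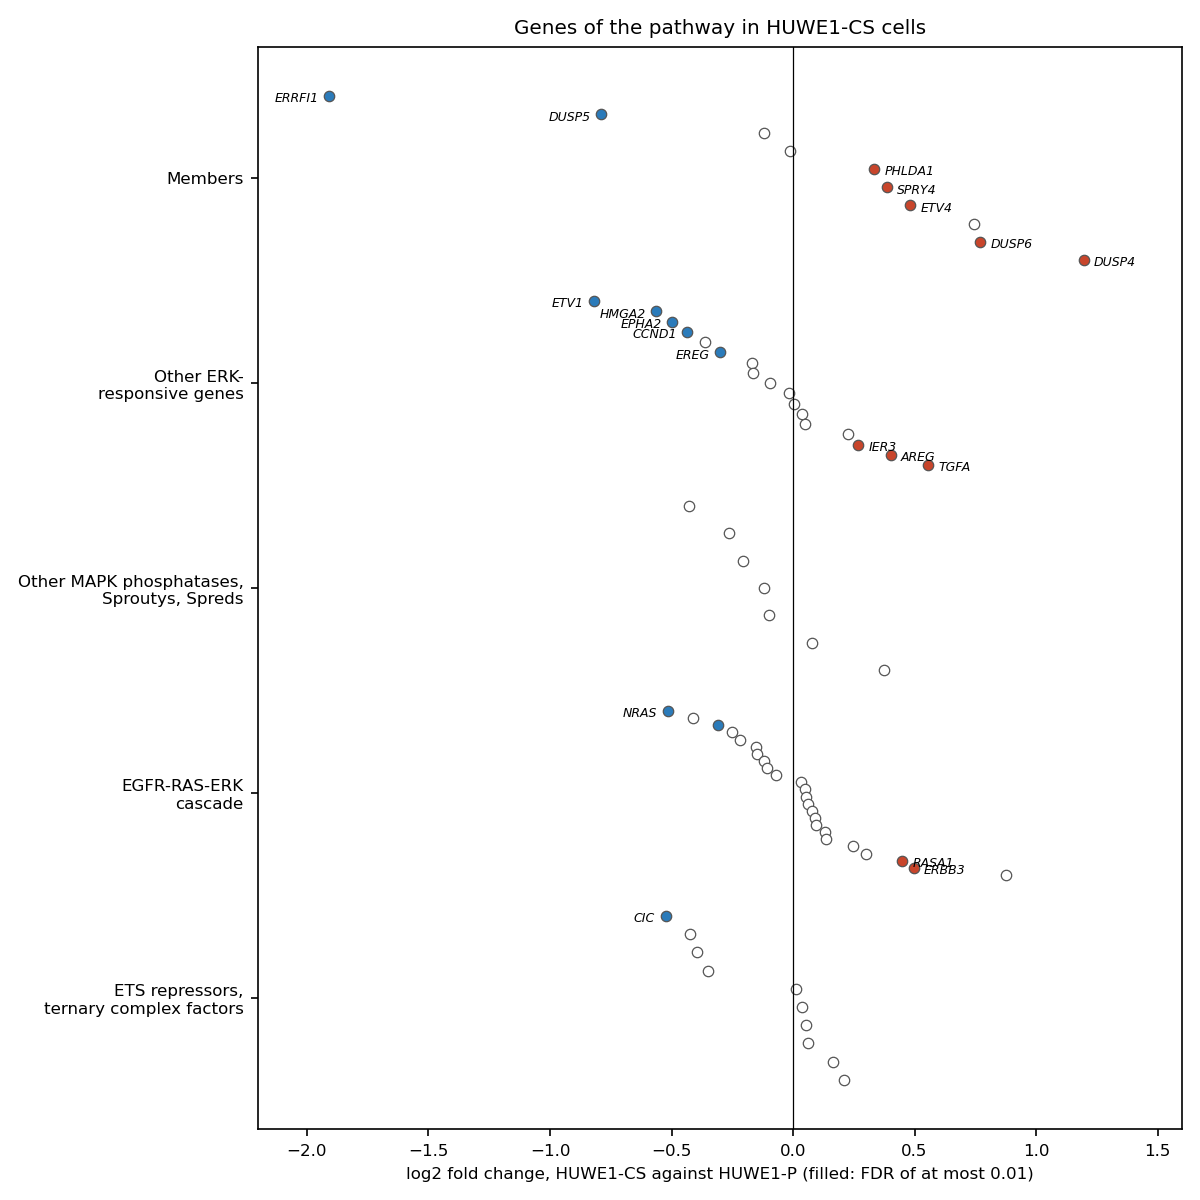
Log2 fold change of HUWE1-CS against HUWE1-P cells (horizontal axis) for the 10 genes and the 4 other lists, ordered by value within each list; filled points had an FDR of at most 0.01 and open points did not, and names mark the filled points described in the text. The 10 genes span -1.91 to 1.20, and the other lists hold called genes on both sides of 0, on the lower side alone (CIC), or none.

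The genes whose pattern over the 9 libraries came nearest to that of ERRFI1 were looked for among 8183 genes with a mean of at least 20 CPM, by the root mean square difference of log2 CPM after each gene was centered on its own mean. ERRFI1 was chosen for its fall in HUWE1-CS cells, so genes near it by this measure show a similar fall by construction. PALLD, which encodes the actin-binding protein palladin, was nearest by a wide margin, with a difference of 0.0370. PALLD had 321 ± 2.96 CPM in HUWE1-P, 315 ± 21.5 CPM in HUWE1-WT and 85.5 ± 4.60 CPM in HUWE1-CS cells (SD, n = 3 each). GJC1, a gap junction connexin, followed at 0.175, PCDH7, a protocadherin, at 0.175, CCN1, a secreted matricellular protein, at 0.189, and KATNAL1, a katanin subunit, at 0.189. CCN1 had only 12 or 13 counts in each HUWE1-CS library, and KATNAL1 only 15 to 18. With no minimum of CPM, JAZF1, with 2 counts in each HUWE1-CS library, took the fourth place and KATNAL1 dropped out of the first 5. Among the 10 genes, DUSP5 was the nearest to ERRFI1 (0.559, place 154) and DUSP4 the farthest (1.44, place 8163).

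**Figure D4:**
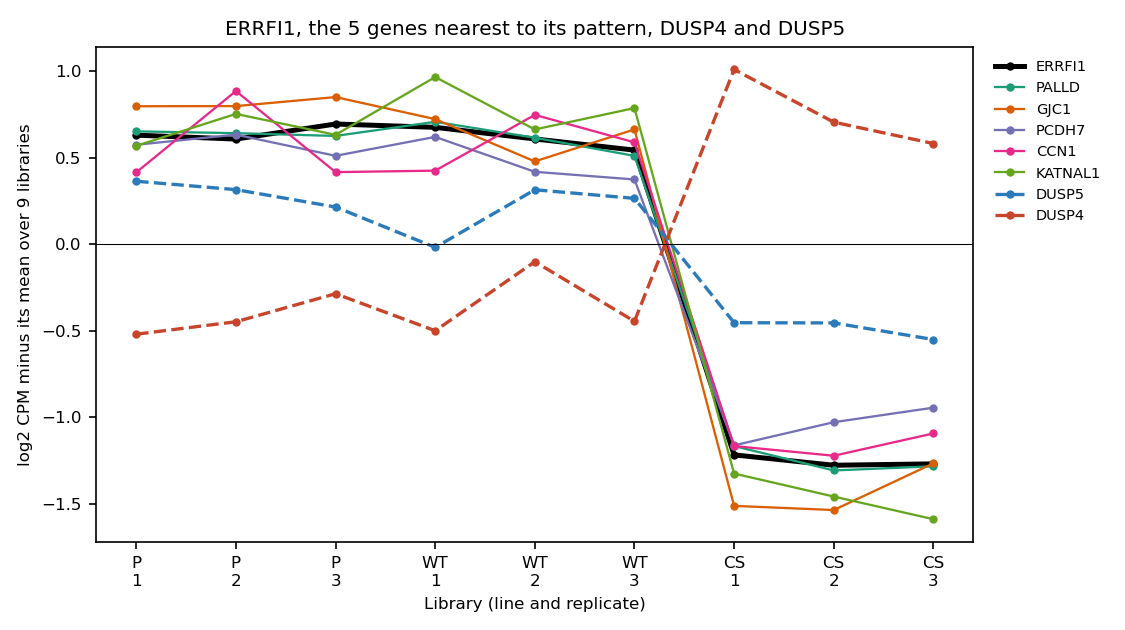
Log2 CPM minus its mean over the 9 libraries (vertical axis) for ERRFI1, its 5 nearest genes by pattern, DUSP5 and DUSP4 (dashed), by line and replicate (horizontal axis). PALLD lies almost on ERRFI1, DUSP5 falls by less, and DUSP4 runs the opposite way; lines between points only join values of 1 gene.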

How the data were processed

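RNA was measured by poly(A)-selected single-end RNA-seq in 9 libraries, 3 each from the HUWE1-P, the HUWE1-WT and the HUWE1-CS line. The deposited values are raw read counts per gene for 11350 genes; per the labels' processing notes, the authors used bcl2fastq 2.20, STAR 2.5.4 and edgeR 3.26.8, and the counting tool, annotation and strand setting are not given in the sources used here. The authors' comparison tables (log2 fold changes, mean log2 CPM, F, p and FDR values) were not used.

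Counts were normalized by TMM and fitted with edgeR's (4.0.16) quasi-likelihood test, with line as the only term and all libraries in 1 fit, Benjamini-Hochberg adjustment over all genes and a call at an FDR of at most 0.01. The code was tested on simulated data. The 10 genes and all gene lists were chosen with earlier results of these data known. From each further list, at most 8 genes past the threshold were named, by p, with HUWE1 and the 5 genes nearest to ERRFI1 in pattern; DUSP7, ELK3 and EGFR fall outside this rule. One gene that the rule names is not reported here. Depth of 1610984 to 2060349 counts limits low genes most. Deviations of same-numbered replicates of different lines correlated at -0.0316 to 0.0934, and those of differently numbered ones at -0.0950 to 0.0325. Replicates were not paired in the main fit, and a fit with a replicate block is given below. Replicates of a line differed by more than sampling noise, so none was counted as a duplicate. Alternatives were other normalizations, tools, filters and thresholds, removal of the length trend, a replicate block, and each replicate left out. Positions are on GRCh37.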

Additional observations from a re-analysis of the deposited data

How the results depend on the processing

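Of 921 log2 fold changes of named genes under other settings, 859 kept their direction and their side of the threshold, 46 lost a call and 16 changed sign, all 16 in comparisons in which the gene was not called. Those counted at an FDR of 0.05 reuse the values of the main fit, so that no sign or call could be lost there. For DUSP4, DUSP5 and DUSP6 no direction or side of the threshold changed in either HUWE1-CS comparison. Of the 10 genes, 5 to 7 were past the threshold against each control line in every setting, a count that includes ERRFI1, which was chosen for it. Over all genes, DESeq2 called 1088 (against HUWE1-P), 998 (against HUWE1-WT) and 0 (between controls), and an FDR of 0.05 gave 2999, 2774 and 13, beside 1934, 1759 and 7. Leaving out 1 replicate gave 1466 to 2018, 1373 to 1766 and 1 to 19. Between controls, the robust fit called 1 and a minimum of 10 counts in every library 4, a setting that gives no value for SPRY2. In the other MAP kinase phosphatase list 1 gene was called at an FDR of 0.05 and 0 to 1 with a replicate left out; in the cascade 1 with DESeq2 and 2 to 4 with a replicate left out; and among ETS repressors 0 to 1 with a replicate left out.

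With the replicate number as a replicate block, 2021, 1835 and 7 genes were called, 7 of the 10 genes against each control line, and no other call on the 10 genes changed. Whether libraries of the same number were prepared together is not given in the sources used here. Signs changed for SPRED1 between controls (0.00417 with the block and length trend removed, 0.00036 with the length trend removed) and for ETV5 against HUWE1-P cells (0.025 and 0.030). With 1 replicate left out, values between controls ranged from -0.065 to 0.15 for DUSP4, -0.068 to 0.22 for DUSP6, -0.17 to 0.11 for SPRY4, -0.12 to 0.046 for SPRED1 and -0.048 to 0.15 for ETV5, and those of ETV5 from -0.070 to 0.077 against HUWE1-P and -0.12 to 0.042 against HUWE1-WT cells. The cause was not tested. Depth limits SPRY2 most.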
